A study of Homo sapiens with 8 samples.

Results

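The 10 genes described here are CAMK2N1, ACKR3, BCHE, COLEC12, LRRN1, LUZP2, MYLK, OPRK1, NOV and MET, a set of genes released when the androgen receptor is blocked. They were found by symbol in a table of 26443 rows with values, in which each of the 10 has its own row. They were chosen by their levels with enzalutamide (ENZ) against vehicle in these same libraries, so that contrast is given below as values without a test. Cells treated with both agents, set against cells treated with the EZH2 inhibitor alone, give a comparison whose difference uses neither the ENZ nor the DMSO libraries. Its filter and its estimate of spread, and so its p-values, do use them. Earlier results of all libraries were also known when the genes were chosen. OPRK1 and NOV had few fragments with ENZ alone and stand out in the Combination libraries, so for them that comparison is not independent of the choice.

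The cells were C4-2B, a castration-resistant human prostate cancer line derived from LNCaP, grown in RPMI medium with fetal bovine serum and treated for 7 days. The Combination group received ENZ together with the EZH2 inhibitor EPZ6438 (no separate doses are labelled), the ENZ group ENZ at 10 uM, the EPZ group EPZ6438 at 1 uM, and the DMSO group the vehicle. Each of the 4 groups has 2 libraries of total RNA, all from the same line, and the labels do not say whether these came from separate cultures. P-values therefore measure the spread between these libraries, which may be technical.

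The androgen receptor is a hormone-activated transcription factor that switches on secretory genes of the prostate, such as KLK3, and lowers the expression of other genes, which come up when the hormone is withdrawn or the receptor is blocked. ENZ competes with androgen for the receptor. EZH2 is the catalytic subunit of Polycomb repressive complex 2, which methylates histone H3 and keeps target genes silent, and EPZ6438 (tazemetostat) blocks its enzyme activity.

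Expression is given as deposited, in FPKM (fragments of a gene divided by its length in kilobases and by the size of the library), and changes as differences of log2(FPKM + 1), which understate the change of genes near or below 1 FPKM. Folds are ratios of group means in FPKM. The linear model (limma) was fitted to 11873 genes whose mean over the 8 libraries reached 1 FPKM, and p-values were adjusted over all of them by Benjamini-Hochberg, with a threshold of 0.05. Of the 10 genes, 8 reached that mean, and OPRK1 and NOV did not. BCHE and LRRN1 reached it mainly through the Combination and ENZ libraries, so their p-values and their place in counts of members are a description. The deposited values fell on whole multiples of the value of 1 fragment, which gave a fragment count for each gene in each library. Estimated depth lay between 15.4 (DMSO replicate 1) and 24.4 (EPZ replicate 1), in units of 1e6 fragments, and was 16.4 in Combination replicate 2. In bulk RNA, fewer cells of a type and less RNA per cell cannot be told apart.

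**Figure D1:**
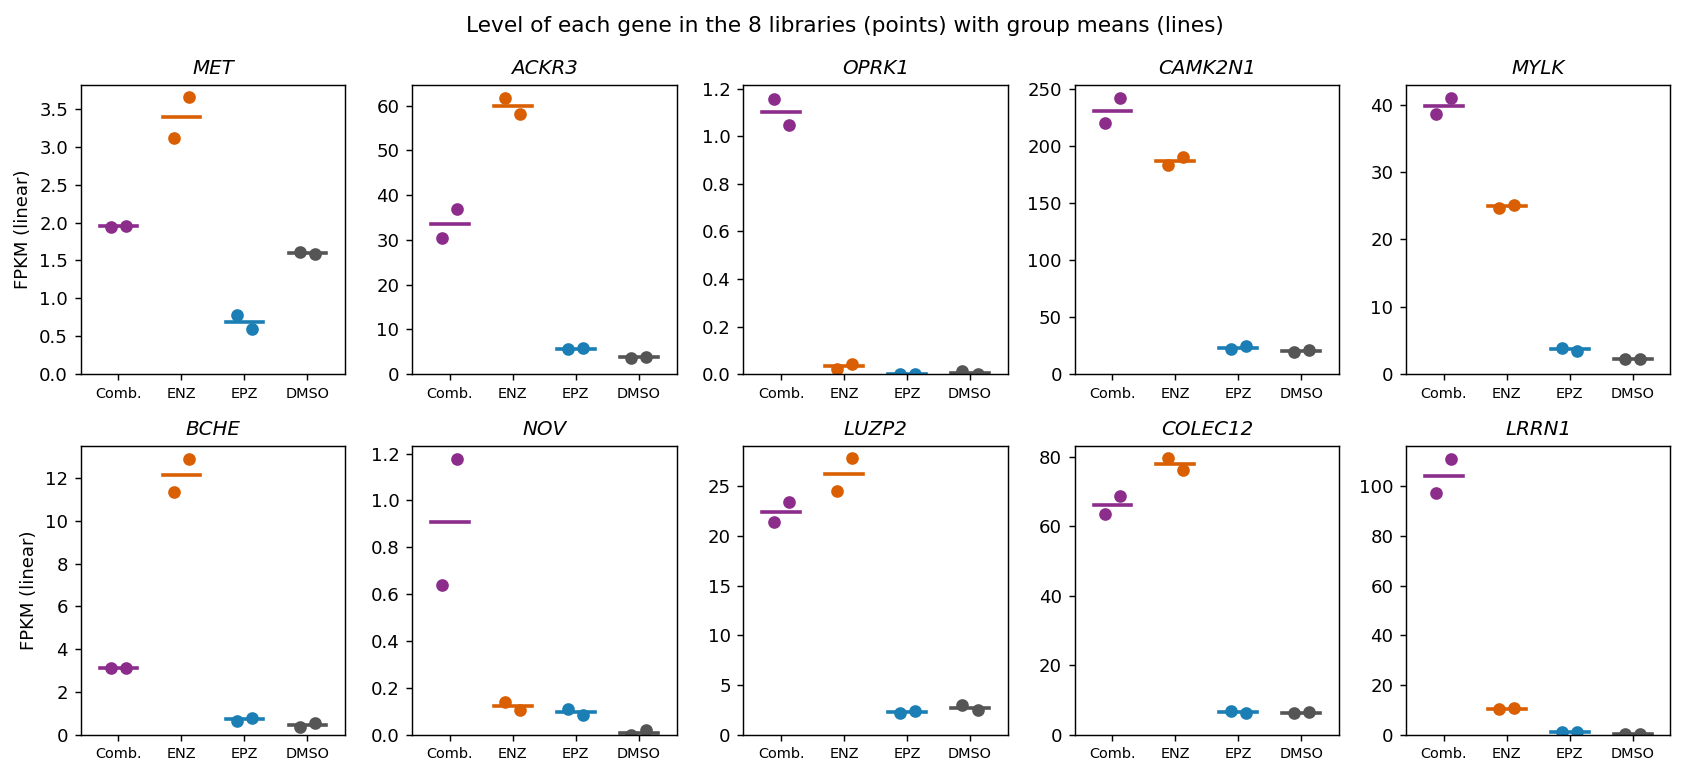
FPKM of the 10 genes, 1 panel a gene with its own linear axis from 0, in the groups Combination (Comb.), ENZ, EPZ and DMSO; points are libraries and lines are group means. For 10 of 10 genes both Combination libraries lie above both EPZ libraries, as they do for 37% of all tested genes. Both ENZ libraries also lie above both DMSO libraries, as they do for 38.7% of all tested genes, in the contrast that chose the 10 genes.

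The receptor activity of the cells was read from its own output first. KLK3, the gene of prostate-specific antigen, averaged 392 ± 12.2 FPKM in Combination, 224 ± 1.24 FPKM in ENZ, 2801 ± 1.5 FPKM in EPZ and 996 ± 26.3 FPKM in DMSO (SD, n = 2 each). All 8 of a list of androgen-activated genes fell in Combination against EPZ, and 7 of the 8 rose in Combination against ENZ. The exception, FKBP5, fell to 4.49 ± 0.291 FPKM in Combination, against 9.24 ± 0.778 FPKM in ENZ.

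BCHE encodes butyrylcholinesterase, a secreted enzyme that hydrolyses choline esters. The gene lies on the minus strand at chr3:165772904-165837472 (GRCh38). Its level was 3.14 and 3.12 FPKM in Combination, 11.4 and 12.9 FPKM in ENZ, 0.653 and 0.787 FPKM in EPZ, and 0.344 and 0.544 FPKM in DMSO, resting on 148 and 125, 536 and 687, 39 and 43, and 13 and 27 fragments. No 2 groups overlapped, and the ENZ libraries were the highest. BCHE reached the filter mainly through the Combination and ENZ libraries, so its p-values are a description. Its comparisons with ENZ or DMSO libraries also share these with the contrast that chose it. In Combination it was 4.35-fold above EPZ, a log2 difference of 1.26 (SE 0.10, limma adjusted p = 2.05e-06). Against ENZ, Combination was lower by 1.67 on the log2 scale (limma adjusted p = 3.67e-07), or 0.258 times the ENZ level. Between EPZ and DMSO the difference was 0.25 (limma adjusted p = 0.0535), which missed the threshold. That call turned on single libraries: without DMSO replicate 2 the difference was 0.35 and passed (adjusted p = 0.0327), it also passed without either ENZ library (0.0488 and 0.0492), and over all alternatives the adjusted p ran from 0.0188 to 0.894.

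LRRN1, a transmembrane protein with leucine-rich repeats studied mainly in the developing nervous system, lies on the plus strand at chr3:3799437-3847703. Its 2 Combination libraries stood at 97.5 and 110.8 FPKM, its ENZ libraries at 10.4 and 10.8 FPKM, its EPZ libraries at 1.21 and 1.11 FPKM, and its DMSO libraries at 0.271 and 0.284 FPKM. The groups formed 4 separate levels. The DMSO values rest on 16 and 22 fragments, against 7187 and 6935 in Combination. LRRN1 was 89.7-fold higher in Combination than in EPZ, with a log2 difference of 5.60 (SE 0.0772, limma adjusted p = 1.48e-10), the 2nd highest of the 11873 genes. It was 9.87-fold higher in Combination than in ENZ (log2 difference 3.18, limma adjusted p = 1.37e-09), the 7th highest in that comparison, and 4.19-fold higher in EPZ than in DMSO (0.76, limma adjusted p = 3.85e-05). Combination stood 375-fold above DMSO. LRRN1 reached the filter mainly through the Combination and ENZ libraries, so its p-values and ranks are a description. Apart from Combination against EPZ, its comparisons share libraries with the contrast that chose it. In GENCODE release 29, 190 exonic bases of LRRN1 (4.46%) lie on the opposite strand of exons of SUMF1, a formylglycine-generating enzyme. SUMF1 had 22.7 and 23.8 FPKM in Combination, 13.4 and 13.2 FPKM in ENZ, 12 and 12.5 FPKM in EPZ, and 7.65 and 7.11 FPKM in DMSO, with a log2 difference of 0.87 between Combination and EPZ. The sources used here do not say whether fragments were assigned by strand, and the part of SUMF1 in the LRRN1 values was not tested.

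Among the 8 tested genes, BCHE and LRRN1 stood farthest apart in the log2 difference between Combination and ENZ. The bases around their start sites are set side by side as a description, and a link to that difference was not tested. Each window runs from 250 bases before to 50 bases after the start that RefSeq annotates (GRCh38.p14), is written 5′ to 3′ on the gene's strand, and has its CpG dinucleotides, the bases at which human DNA is methylated, in capitals. The BCHE window is chr3:165837374-165837673 on the minus strand and the LRRN1 window chr3:3799181-3799480 on the plus strand.
BCHE: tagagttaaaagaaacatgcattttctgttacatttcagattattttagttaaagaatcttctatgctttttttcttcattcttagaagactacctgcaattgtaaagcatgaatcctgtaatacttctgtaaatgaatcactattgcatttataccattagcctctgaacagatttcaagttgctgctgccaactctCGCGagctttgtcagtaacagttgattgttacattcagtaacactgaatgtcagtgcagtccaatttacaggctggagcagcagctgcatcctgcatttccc
LRRN1: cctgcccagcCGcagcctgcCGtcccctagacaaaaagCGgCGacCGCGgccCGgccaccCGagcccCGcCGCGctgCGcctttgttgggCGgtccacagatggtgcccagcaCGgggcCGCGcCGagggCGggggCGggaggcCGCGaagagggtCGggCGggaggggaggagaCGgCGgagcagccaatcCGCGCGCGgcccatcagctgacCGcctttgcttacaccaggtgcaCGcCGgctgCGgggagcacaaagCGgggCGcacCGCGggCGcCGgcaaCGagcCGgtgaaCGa
The BCHE window holds 2 CpG at 36.7% G and C, and 11% of 35116 RefSeq promoter windows of the same length have fewer. The LRRN1 window holds 42 at 75.3% G and C, and 94.2% of windows have fewer; the median window has 14. Among the other members with a RefSeq window, COLEC12 had 49 CpG, LUZP2 38 and MET 30. The MYLK window, with 3 CpG, lies at an inner start, at base 123620548, and not at the outermost GENCODE start of the gene at base 123884331. None of the 6 windows held AGAACA, an arm of the androgen response element, on either strand (14.8% of all windows do), and none held the forkhead motif TGTTTAC (3.42% of all windows). A window without these letters says only that they are not in those 300 bases.

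NOV (CCN3), a secreted matricellular protein, lies on chromosome 8 and was barely detected outside Combination. It stood at 0.638 and 1.17 FPKM in Combination (32 and 50 fragments), 0.140 and 0.106 FPKM in ENZ (7 and 6), 0.110 and 0.0861 FPKM in EPZ (7 and 5), and at 0 and 0.0189 FPKM in DMSO (0 and 1). Combination was above every other library, and ENZ and EPZ overlapped. From the summed fragments scaled to depth, Combination was 8.96-fold above EPZ (95% interval 4.86 to 18.1) and 7.27-fold above ENZ (4.02 to 14.2), with intervals that cover counting error only. The Combination libraries themselves were uneven, with a mean of 0.906 ± 0.379 FPKM (SD, n = 2).

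OPRK1, the kappa opioid receptor, also lies on chromosome 8 and appeared at more than a few fragments in Combination alone. Its values were 1.16 and 1.05 FPKM in Combination, 0.0200 and 0.0442 FPKM in ENZ, 0 in both EPZ libraries, and 0.0125 and 0 FPKM in DMSO. These are 205, 7, 0 and 1 fragments summed over the 2 libraries of Combination, ENZ, EPZ and DMSO. Combination was at least 89.6-fold higher than EPZ, taking 3 fragments over the group as the floor for a count of 0, and 33.7-fold higher than ENZ (95% counting interval 16.1 to 85.0). In a fit without the filter on low values, the log2 difference between Combination and EPZ was 1.07 for OPRK1 and 0.78 for NOV. These values carry no test, since both genes stand out in the Combination libraries. At this depth a response of either gene to ENZ alone rests on 13 fragments or fewer a group. OPRK1 and NOV are thus listed among genes that ENZ releases, but most of their fragments came from cells that received EPZ6438 as well.

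MET, the receptor tyrosine kinase for hepatocyte growth factor, lies on the plus strand at chr7:116672390-116798386 and had the smallest response to ENZ of the 8 tested genes. It measured 1.94 and 1.96 FPKM in Combination, 3.12 and 3.66 FPKM in ENZ, 0.785 and 0.597 FPKM in EPZ, and 1.61 and 1.59 FPKM in DMSO. Every group was separate from the next, in the order ENZ, Combination, DMSO and EPZ. MET was higher in Combination than in EPZ by 0.81 (SE 0.0984, limma adjusted p = 4.53e-05), or 2.82-fold. EPZ6438 went with less MET in both settings: the log2 difference was -0.57 in Combination against ENZ (limma adjusted p = 5.25e-04) and -0.62 in EPZ against DMSO (limma adjusted p = 5.73e-04). Combination and DMSO did not differ past the threshold, at 0.18 (SE 0.0984, limma adjusted p = 0.112). Apart from Combination against EPZ, these comparisons share libraries with the contrast that chose MET.

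ACKR3, an atypical chemokine receptor that binds and clears CXCL12, lies on the plus strand at chr2:236567787-236582358. Its level was 30.4 and 36.8 FPKM in Combination, 61.7 and 58.2 FPKM in ENZ, 5.58 and 5.84 FPKM in EPZ, and 3.55 and 3.92 FPKM in DMSO. ENZ was highest in both libraries and Combination came next, with no overlap. The gene was 5.88-fold higher in Combination than in EPZ (log2 difference 2.36, SE 0.0898, limma adjusted p = 1.86e-08). It was lower in Combination than in ENZ, at 0.560 times that level (-0.82, limma adjusted p = 2.27e-05), and higher in EPZ than in DMSO, at 1.53-fold (0.50, limma adjusted p = 0.00115). Both of these comparisons share libraries with the contrast that chose ACKR3.

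COLEC12, a scavenger receptor with a collectin-like lectin domain, lies on the minus strand at chr18:316740-500722. It had 63.5 and 68.6 FPKM in Combination, 79.5 and 76.3 FPKM in ENZ, 6.85 and 6.32 FPKM in EPZ, and 6.29 and 6.45 FPKM in DMSO. The libraries with ENZ stood far above those without, while EPZ and DMSO overlapped. Combination exceeded EPZ by 3.14 on the log2 scale (SE 0.0645, limma adjusted p = 7.62e-10), or 10.0-fold. EPZ and DMSO differed by 0.04 (SE 0.0645, limma adjusted p = 0.616). That comparison and the next share libraries with the contrast that chose COLEC12. Combination was below ENZ by a log2 difference of -0.24 (limma adjusted p = 0.00832), a call that was lost without Combination replicate 1 (adjusted p = 0.0779; 0.00640 to 0.0779 over all alternatives) and that turned to 0.17 under quantile normalization.

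CAMK2N1 encodes an inhibitor of calcium/calmodulin-dependent kinase II and was the most abundant of the 10 genes per length. It lies on the minus strand at chr1:20482391-20486220. Its values were 219.6 and 242 FPKM in Combination, 183 and 189.9 FPKM in ENZ, 22.0 and 24.5 FPKM in EPZ, and 19.6 and 20.9 FPKM in DMSO, which rest on 712 to 9952 fragments a library. The 4 groups did not overlap, but the gap that ENZ makes is far wider than the gap that EPZ6438 makes. Combination was 9.93-fold above EPZ (log2 difference 3.26, SE 0.0709, limma adjusted p = 1.03e-09) and 1.24-fold above ENZ (0.31, limma adjusted p = 0.00330). EPZ was higher than DMSO by 0.19 (limma adjusted p = 0.0476). Combination against ENZ and EPZ against DMSO share libraries with the contrast that chose CAMK2N1. The last call was lost without DMSO replicate 1 (adjusted p = 0.238), DMSO replicate 2 (0.0670) or EPZ replicate 2 (0.295), and over all alternatives the adjusted p ran from 0.00859 to 0.295.

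MYLK, the myosin light chain kinase, lies on the minus strand at chr3:123610049-123884331. It stood at 38.5 and 41.0 FPKM in Combination, 24.7 and 25.2 FPKM in ENZ, 3.85 and 3.49 FPKM in EPZ, and 2.20 and 2.22 FPKM in DMSO. Each added agent went with a higher level, and no groups overlapped. The comparisons of EPZ6438 below share libraries with the contrast that chose MYLK. MYLK was 10.8-fold higher in Combination than in EPZ (log2 difference 3.13, SE 0.0666, limma adjusted p = 9.05e-10), 1.59-fold higher in Combination than in ENZ (0.65, limma adjusted p = 1.43e-05) and 1.66-fold higher in EPZ than in DMSO (0.54, limma adjusted p = 1.29e-04). Its antisense neighbour MYLK-AS1, which shares 133 exonic bases with it, had 2.53 and 2.52 FPKM in Combination, 2.07 and 2.52 FPKM in ENZ, 2.15 and 2.85 FPKM in EPZ, and 3.97 and 3.32 FPKM in DMSO. MYLK-AS1 was highest in DMSO, where MYLK was lowest.

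LUZP2, a leucine zipper protein, lies on the plus strand at chr11:24496970-25082631. It measured 21.4 and 23.4 FPKM in Combination, 24.5 and 27.8 FPKM in ENZ, 2.18 and 2.39 FPKM in EPZ, and 2.95 and 2.52 FPKM in DMSO. The libraries with ENZ were again separate from those without. For LUZP2 too, the comparisons of EPZ6438 share libraries with the contrast that chose it. LUZP2 was 9.78-fold higher in Combination than in EPZ (log2 difference 2.83, SE 0.0883, limma adjusted p = 5.91e-09). Neither comparison of EPZ6438 passed: Combination against ENZ gave -0.22 (limma adjusted p = 0.0503) and EPZ against DMSO -0.18 (limma adjusted p = 0.104). For Combination against ENZ the threshold was passed without ENZ replicate 1 (adjusted p = 0.0229), DMSO replicate 1 (0.0464) or DMSO replicate 2 (0.0462), and the adjusted p ran from 0.0229 to 0.416 over all alternatives.

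Set beside each other, the genes can be ordered by the effect of ENZ in cells without EPZ6438. The log2 difference between ENZ and DMSO was 3.69 for ACKR3, 3.42 for COLEC12, 3.19 for BCHE, 3.18 for LRRN1, 3.14 for CAMK2N1, 3.01 for MYLK and 2.86 for LUZP2, the 2nd to 8th highest of the 11873 genes, while MET at 0.75 was 629th. In ratios of mean FPKM, which the pseudocount does not compress, the ENZ level was 38.0-fold the DMSO level for LRRN1 and 27.3-fold for BCHE, against 9.19-fold for CAMK2N1 and 9.56-fold for LUZP2. These values chose the members and carry no test; both ENZ libraries lay above both DMSO libraries for 8 of 8 members tested and for 38.7% of all genes. With EPZ6438 present the same 7 genes lay between 1.26 for BCHE and 5.60 for LRRN1. All 8 tested genes were higher in Combination than in EPZ and 0 lower, where 29.2% of all genes were called higher and 43.7% lower. Their median log2 difference was 2.98, against -0.11 over all genes. A log2 difference above 1 was reached by 7 of the 8, against 5.34% of all genes. In these counts and in the median BCHE and LRRN1 stand as a description.

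**Figure D2:**
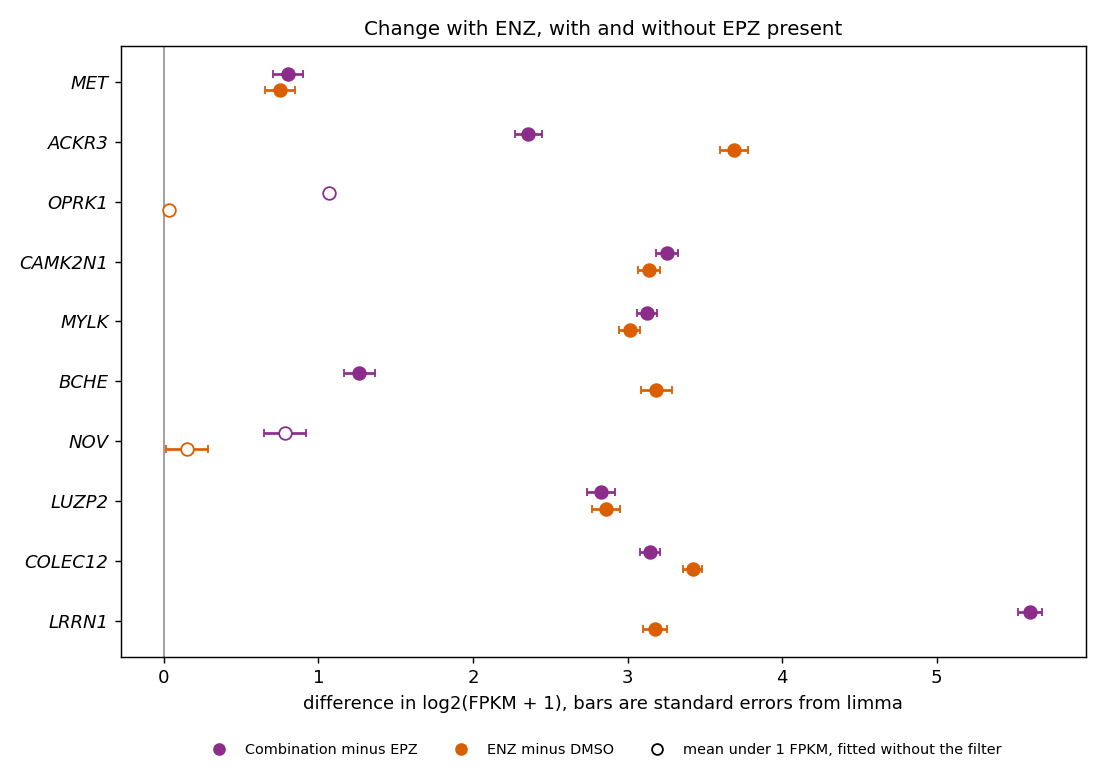
Log2(FPKM + 1) difference with ENZ for the 10 genes, with EPZ6438 present (Combination minus EPZ) and without it (ENZ minus DMSO); bars are standard errors of the limma model, and open symbols are OPRK1 and NOV, fitted without the filter. CAMK2N1, COLEC12, LUZP2 and MYLK lie near the same value in both settings, LRRN1 is larger with EPZ6438 (5.60 and 3.18), and ACKR3 and BCHE are smaller (2.36 and 3.69; 1.26 and 3.19).

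**Figure D3:**
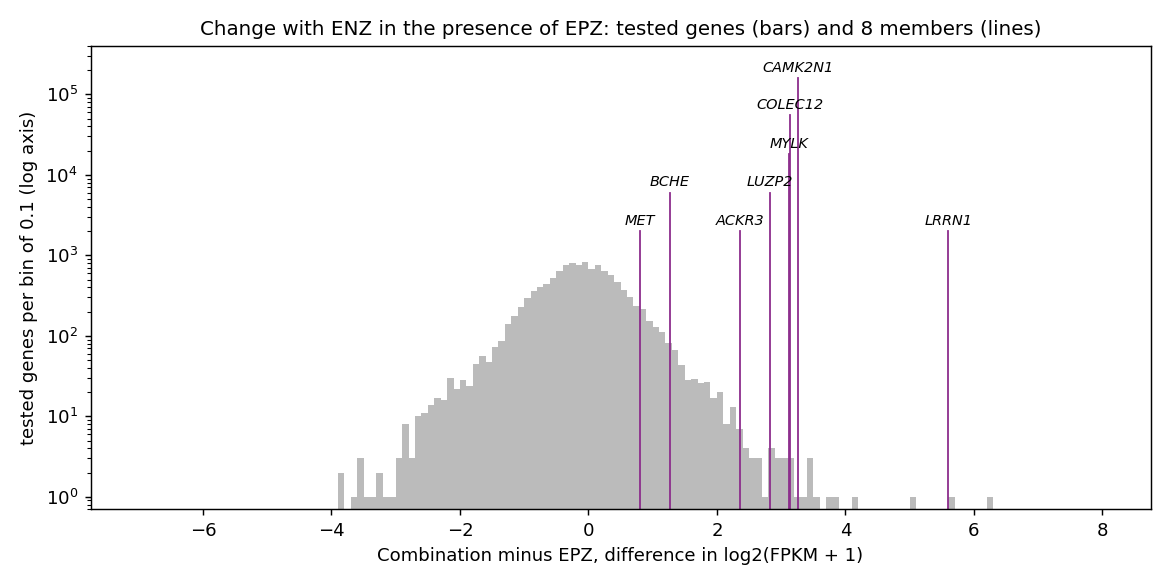
Distribution of the log2(FPKM + 1) difference between Combination and EPZ over the 11873 tested genes, counts on a log axis, with the 8 members marked. LRRN1, CAMK2N1, COLEC12, MYLK, LUZP2 and ACKR3 lie at 2.36 or more, among the 40 highest, while BCHE ranks 350th and MET 995th.

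The difference between the ENZ effect with and without EPZ6438 holds the contrast that chose the genes and is given as a value only. It was 2.42 (SE 0.11) for LRRN1, -1.33 (SE 0.13) for ACKR3 and -1.92 (SE 0.14) for BCHE. For COLEC12 it was -0.28, and for CAMK2N1, MYLK, MET and LUZP2 it lay between -0.033 and 0.12. Under quantile normalization these became 0.13 for COLEC12, 0.49 for CAMK2N1, 0.64 for MYLK, 0.19 for MET and 0.34 for LUZP2, while LRRN1 (3.10), ACKR3 (-0.90) and BCHE (-1.66) kept their signs. For a gene near 0 FPKM the pseudocount enters this value: with 0.1 in place of 1, LRRN1 had 4.82 for ENZ against DMSO and 1.55 for the difference of differences.

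Adding EPZ6438 to ENZ went with higher levels of some genes and lower levels of others, in shares near those of all genes. In Combination against ENZ, 3 of the 8 rose (LRRN1, MYLK and CAMK2N1), 4 fell (BCHE, ACKR3, MET and COLEC12) and LUZP2 was not called; 25.3% of all genes were called higher and 45.5% lower. A log2 difference above 1 was reached by 1 of the 8, LRRN1, against 3.6% of all genes. The members' median was -0.23, against -0.15 over all genes. The split of calls over all genes depends on scaling: 35.7% of calls were higher as deposited and 51.0% under quantile normalization, which moves the median of all genes to 0.0072. Relative to the median of all genes as deposited, LRRN1, MYLK and CAMK2N1 were above it, LUZP2 and COLEC12 were within 0.1 of it, and MET, ACKR3 and BCHE were below it. This comparison shares the ENZ libraries with the contrast that chose the genes.

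EPZ6438 alone went with a higher level of LRRN1, MYLK and ACKR3 and a lower level of MET. In EPZ against DMSO, 4 of the 8 rose (LRRN1, MYLK, ACKR3 and CAMK2N1), MET fell, and BCHE, LUZP2 and COLEC12 were not called; 23.4% of all genes were called higher and 32.4% lower. The median was 0.22 for the members and -0.046 for all genes, and 0 of the 8 rose by a log2 difference above 1, beside 1.85% of all genes. With a pseudocount of 0.1 LRRN1 passed that size, at 1.74. In Combination against DMSO, 7 of the 8 rose and MET was not called, beside 33.3% of all genes higher and 47.5% lower. Both comparisons share the DMSO libraries with the contrast that chose the genes.

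**Figure D4:**
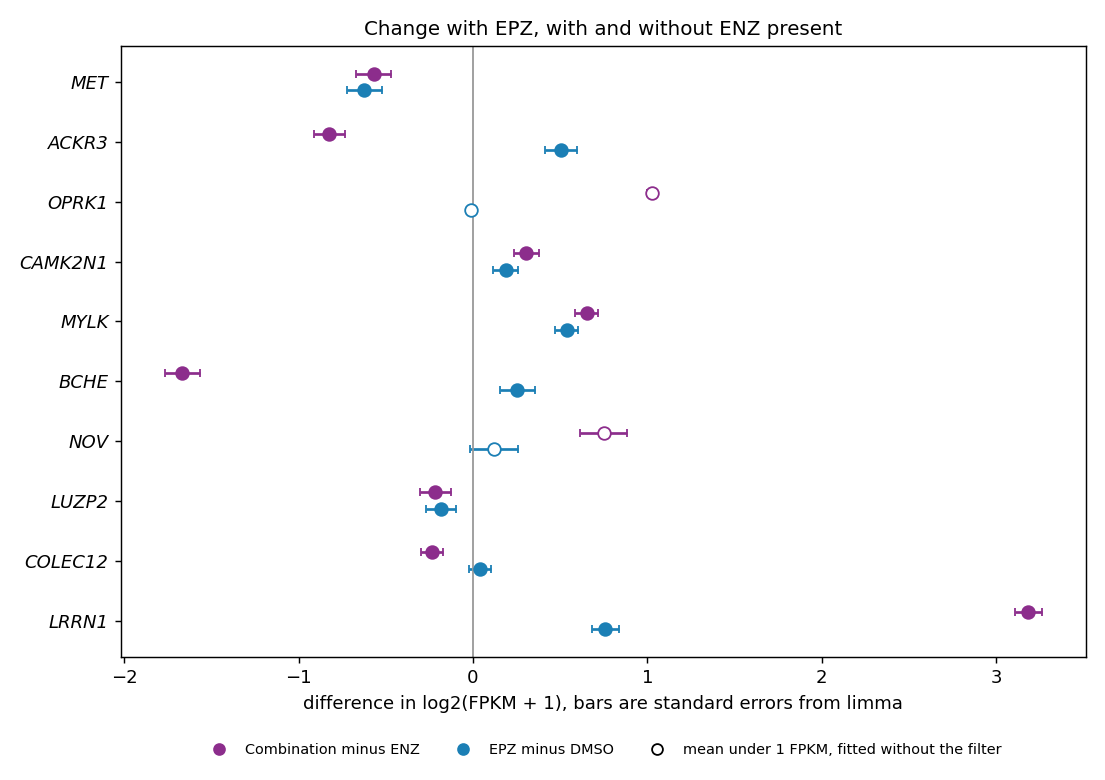
Log2(FPKM + 1) difference with EPZ6438 for the 10 genes, with ENZ present (Combination minus ENZ) and without it (EPZ minus DMSO); bars are standard errors of the limma model, and open symbols are OPRK1 and NOV, fitted without the filter. LRRN1 is higher in both (3.18 and 0.76), MET is lower in both (-0.57 and -0.62), and ACKR3 has opposite signs (-0.82 and 0.50).

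Of 13 other genes reported to be repressed by androgen, 8 could be tested. In ENZ against DMSO all 8 were called, 6 higher and 2 lower, with a median of 0.95. Of the calls over all genes, not of all tested genes, 49.25% were higher. UGT2B15, UGT2B17 and PMP22, among the 6, passed the filter through the ENZ libraries, so their rise is a description. In Combination against EPZ 4 rose and 2 fell, with a median of 0.11. Of all genes 29.2% were called higher there and 43.7% lower. FOLH1, the prostate-specific membrane antigen, averaged 113 ± 3.75 FPKM in Combination, 266 ± 12.8 FPKM in ENZ, 60.9 ± 2.82 FPKM in EPZ and 95.5 ± 0.651 FPKM in DMSO, so that like ACKR3 and BCHE it was higher with ENZ alone than with both agents (Combination against ENZ -1.22, limma adjusted p = 7.39e-08). UGT2B11 and UGT2B28, which glucuronidate steroids, fell in Combination against EPZ by 1.68 and 1.63 on the log2 scale. They are the 2 counted as fallen there. Both passed the filter only with the EPZ libraries, so these falls are a description. The UGT2B genes are near-identical copies whose fragments can be split between them, so these levels are uncertain.

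The ligands of the receptors were mostly scarce. MET's ligand HGF was listed at 0 in every library, a gene named after its values were seen. Of 14 genes of the HGF and MET pathway, 10 were tested, and 4 rose and 3 fell in Combination against EPZ, with a median of 0.11. The shares over all genes were 29.2% higher and 43.7% lower. PTPRJ, a phosphatase that acts on MET, had 3.43 ± 0.156 FPKM in Combination and 6.86 ± 0.186 FPKM in EPZ (log2 difference -0.83, limma adjusted p = 3.55e-06). The adaptor SHC1 was lower by 0.51 on the log2 scale, SPINT1, an inhibitor of the HGF-activating protease, was higher by 0.51, and MST1, the ligand of the related receptor MST1R, was higher by 1.05. In EPZ against DMSO 7 of the 10 rose and 1 fell, where 23.4% of all genes were called higher and 32.4% lower.

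Of the CXCL12 axis of ACKR3, 5 genes were tested, and 0 rose and 4 fell in Combination against EPZ, with a median of -0.56. Of all genes 29.2% were called higher there and 43.7% lower. CXCL12, the chemokine that ACKR3 clears, averaged 0.466 ± 0.201 FPKM in Combination, 0.294 ± 0.0841 FPKM in ENZ, 4.93 ± 0.133 FPKM in EPZ and 0.328 ± 0.117 FPKM in DMSO. It was thus high in EPZ alone and passed the filter through those libraries, so its place among the genes that fell is a description. ACKR3 was low both in EPZ, at 5.71 ± 0.187 FPKM, and in DMSO, at 3.73 ± 0.260 FPKM. For CXCL12 the log2 difference between Combination and EPZ was -2.02, and that between EPZ and DMSO 2.16, both given as values without a test. ADRBK1, a kinase of activated receptors, fell by 0.75 on the log2 scale and ARRB1, a beta-arrestin, fell by 0.56. The other chemokine receptor for CXCL12, CXCR4, had means of 0.0693 FPKM in Combination, 0.0388 FPKM in ENZ, 0.0642 FPKM in EPZ and 0.0608 FPKM in DMSO. Of the 6 opioid genes beside OPRK1, 0 reached the filter, and the ligand precursors PDYN and PENK were listed at 0 in every library.

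The kinase pathways of CAMK2N1 and MYLK moved little beside the genes themselves. Of 7 tested CaMKII and calmodulin genes, 3 rose and 3 fell in Combination against EPZ, with a median of 0.05. Of all genes 29.2% were called higher there and 43.7% lower. CAMK2B, a subunit of the kinase that CAMK2N1 inhibits, averaged 4.71 ± 0.147 FPKM in Combination and 2.23 ± 0.295 FPKM in EPZ (log2 difference 0.83, limma adjusted p = 1.28e-04), and CAMK2G 21.5 ± 0.526 FPKM in Combination and 15.8 ± 0.331 FPKM in EPZ (0.42). CALM3 and CALM2, which encode calmodulin, fell by 0.59 and 0.50. Of 12 tested genes of the myosin light chain pathway, 7 rose and 3 fell in the same comparison, beside the same shares of all genes, with a median of 0.22. The kinase ROCK2 rose by 0.63, while PPP1CB, the catalytic subunit of myosin phosphatase, fell by 0.60, the GTPase RHOA fell by 0.48 and the light chain MYL12A fell by 0.44.

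Few relatives of the other members were expressed. CYR61, a CCN protein like NOV, was the single CCN gene tested of 5 in the table and averaged 8.79 ± 0.713 FPKM in Combination, 7.86 ± 0.142 FPKM in ENZ, 4.92 ± 0.192 FPKM in EPZ and 3.50 ± 0.345 FPKM in DMSO; it rose by 0.72 in Combination against EPZ. Of 2 tested genes of the cholinesterase system, COLQ, the collagen tail that anchors cholinesterase, rose by 1.27 and the nicotinic receptor subunit CHRNA5 fell by 0.96. COLQ passed the filter only with its Combination libraries, so its rise is a description. COLQ differs from BCHE in where it peaked, with 4.13 ± 0.396 FPKM in Combination and 0.917 ± 0.295 FPKM in ENZ. Of 2 tested scavenger receptors, SCARB1 fell by 1.79 and SCARA3 differed by -0.04 (limma adjusted p = 0.653) in Combination against EPZ. SCARA3 was lower in Combination than in ENZ by a log2 difference of -1.20 and higher in ENZ than in DMSO by 0.53 (limma adjusted p = 2.40e-04), both in the direction of COLEC12. Of 3 tested leucine-rich repeat genes, LINGO1 rose by 0.64, LRFN1 fell by 0.39 and LRFN4 was not called. LINGO1 likewise passed the filter only with its Combination libraries, and its rise is a description. Beside these small counts, 29.2% of all genes were called higher in Combination against EPZ and 43.7% lower.

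EZH2, the target of EPZ6438, averaged 6.38 ± 0.138 FPKM in Combination, 24.8 ± 1.99 FPKM in ENZ, 15.4 ± 0.945 FPKM in EPZ and 25.8 ± 0.551 FPKM in DMSO. It fell by 1.15 on the log2 scale in Combination against EPZ (limma adjusted p = 4.13e-07) and fell by 1.81 against ENZ (limma adjusted p = 2.40e-08). Over the 11 PRC2 genes tested, 4 rose and 5 fell in Combination against EPZ, beside 29.2% of all genes higher and 43.7% lower. In Combination against ENZ 3 rose and 7 fell, beside 25.3% of all genes higher and 45.5% lower. JARID2, an accessory subunit, and EZH1, the other catalytic subunit, rose by 0.80 and 0.63 in Combination against EPZ, and the histone chaperone RBBP7 fell by 0.49. EZH2 mRNA was thus lowest in the group in which LRRN1, MYLK, CAMK2N1, OPRK1 and NOV were highest; the part of the EZH2 level in those values was not tested.

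Genes whose pattern over the 8 libraries was most like a member's are given by Pearson's r on log2(FPKM + 1), among 3153 genes, as a description; the 8 libraries form 4 groups, so high values are common. For LRRN1 these were SAGE1 (r = 0.999), with means of 16.6 FPKM in Combination, 5.52 FPKM in ENZ, 2.21 FPKM in EPZ and 1.62 FPKM in DMSO, and KITLG (r = 0.998). OPRK1 was followed most closely by BRINP1 and TNC (r = 0.996 each), and TNC averaged 12.2 FPKM in Combination, 0.374 FPKM in ENZ, 0.160 FPKM in EPZ and 0.00754 FPKM in DMSO. BCHE had SLITRK3 (r = 0.996) and CBLN2 (r = 0.995) nearest, and CBLN2 averaged 10.2 FPKM in Combination, 24.3 FPKM in ENZ, 3.92 FPKM in EPZ and 3.03 FPKM in DMSO. ENO2 was nearest to LUZP2 (r = 0.995), ZNF629 to CAMK2N1 (0.997), HFE to ACKR3 (0.995), NIPAL3 to MYLK (0.999), CA1 to COLEC12 (0.993), CTSK to NOV (0.975) and STXBP5L to MET (0.992).

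The labelled cell type was checked against markers. All 8 luminal prostate markers had a mean over 1 FPKM, while the 4 basal markers together summed to at most 0.232 FPKM in any library and the 4 endothelial markers to at most 0.857 FPKM. Of 10 fibroblast and smooth muscle markers, which MYLK would accompany in other tissues, DES and COL1A2 were listed at 0 in every library and COL1A1 alone had a mean over 1 FPKM. Their summed level was 11.4 to 11.8 FPKM in Combination, 3.97 to 5.12 FPKM in ENZ, 3.27 to 3.58 FPKM in EPZ and 2.62 to 2.74 FPKM in DMSO. Of 8 neuroendocrine markers, ENO2 alone had a mean over 1 FPKM, and the list summed to 7.96 to 8.78 FPKM in Combination, 8.54 to 8.82 FPKM in ENZ, 2.52 to 2.84 FPKM in EPZ and 2.06 to 2.27 FPKM in DMSO. The 5 immune markers summed to 11.2 to 12.2 FPKM in Combination, 6.51 to 6.92 FPKM in ENZ, 10.4 to 10.7 FPKM in EPZ and 7.10 to 7.45 FPKM in DMSO, with CD68 alone over a mean of 1 FPKM. COL1A1 and ENO2 thus moved with several members, and their part in the members' values was not tested.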

How the data were processed

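RNA of 8 libraries of C4-2B cells, 2 in each of 4 groups, was sequenced on an Illumina instrument after preparation with a NEBNext Ultra RNA kit, per the labels' protocols. The authors deposited FPKM values per gene in a single table, used here as deposited. STAR and the hg38 build are named in the submitters' processing notes; how fragments were counted, on which annotation and whether by strand, is not stated in these sources. Groups and replicate numbers come from sample titles.

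Members and gene lists were chosen with earlier results of these data known. Values were taken as log2(FPKM + 1) for 11873 genes averaging 1 FPKM or more. Limma 3.58.1 (R 4.3.3) fitted 1 mean per group and gave moderated two-sided p-values with a variance trend (5.47 prior and 4 residual degrees of freedom), with Benjamini-Hochberg adjustment at 0.05. All groups share the estimate of spread. The procedure was tested on simulated data. Named were all members, up to 4 genes a list by smallest p in Combination against EPZ, KLK3, KLK2, TMPRSS2, FKBP5 and EZH2 where a result turned on them, and for each member the genes of most like pattern; 1 gene that this rule takes is not reported here.

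FPKM hold no totals. Fragment counts came from the step between low values, which stood in whole-number ratios for 95% to 96.9% of genes under 0.1 FPKM; the absolute scale rests on 727 single-transcript genes, so depths are estimates. All 80 member values came out as whole fragments within a tolerance of 0.002 plus 2e-05 of the count. Intervals are exact, at 95%, and cover counting error only. GENCODE release 29 gave gene positions and overlaps, and 90.2% of symbols were found in it. Python 3.11.15 with pandas 2.3.3, numpy 2.4.6, scipy 1.17.1 and matplotlib 3.10.9 was used.

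Alternatives were median-of-ratios scaling, quantile normalization, a pseudocount of 0.1, no filter, a mean of at least 5 FPKM, the replicate number as a block, a fit of only the compared groups, and each library left out in turn.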

Additional observations from a re-analysis of the deposited data

Results flagged for a closer look

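ACKR3 was singled out because both libraries with EPZ6438 moved one way without ENZ and the other way with it. EPZ against DMSO gave a log2 difference of 0.50, with 5.58 and 5.84 FPKM in EPZ and 3.55 and 3.92 FPKM in DMSO. Combination against ENZ gave -0.82, with 30.4 and 36.8 FPKM in Combination and 61.7 and 58.2 FPKM in ENZ. The difference between these effects was -1.33 and was not tested, since it contains the libraries that chose the gene.

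BCHE showed the same opposition of signs. The log2 difference was 0.25 in EPZ against DMSO, where the DMSO values rest on 13 and 27 fragments and the threshold was missed, and -1.67 in Combination against ENZ. The difference between these effects was -1.92 and was not tested. Under quantile normalization the EPZ against DMSO value was -0.018, so for BCHE the opposition of signs depends on the scaling.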

How the results depend on the processing

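In Combination against EPZ, the log2 differences of all 8 tested genes kept their direction and their call under every alternative that kept the gene; BCHE and MET fall below a mean of 5 FPKM. With that filter the count of all genes higher was 2146 in Combination against DMSO, 1675 in Combination against ENZ, 1856 in Combination against EPZ and 1819 in EPZ against DMSO, and the count of members lower in EPZ against DMSO was 0. Without a filter 6270 genes were higher in Combination against DMSO, 4561 genes and 5 members in Combination against ENZ. Those 5 include OPRK1 and NOV, for which the count is a description. Under quantile normalization 2 members were lower in EPZ against DMSO, and 4 tested values changed sign: MET in Combination against DMSO (-0.13), COLEC12 (0.17) and LUZP2 (0.086) in Combination against ENZ, and BCHE in EPZ against DMSO (-0.018); the cause was not tested. The untested difference of differences also changed sign there for COLEC12 (0.13) and LUZP2 (0.34). With 1 library left out, COLEC12 in EPZ against DMSO ran from -0.010 to 0.091; a group left with 1 library is assumed to vary like the others.

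Deviations of same-numbered libraries correlated at -0.015 to 0.109. Such low values cannot show whether the numbers pair the libraries. With a replicate block, 8 members were higher in Combination against EPZ and 5 in EPZ against DMSO, where BCHE was added at 0.25. Fewer than 30 fragments stand behind LRRN1 and BCHE in each DMSO library, and behind NOV and OPRK1 outside Combination, which limits the folds of these genes.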
